A study of Mus musculus with 16 samples.

Results

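Human atypical teratoid rhabdoid tumors (ATRT) fall into subgroups named MYC, SHH and TYR, and the TYR subgroup takes its name from tyrosinase, a pigment gene. Whether any mouse rhabdoid tumor shows this pigment program was examined here with 8 genes, Tyr, Tyrp1, Dct, Mitf, Pmel, Mlana, Slc45a2 and Oca2, chosen for their known roles in melanin-producing cells. All 8 were found by symbol among the 24982 genes of the count table and among the 24951 genes of the TPM table. TPM is a level per transcript length, scaled so that all genes of a tumor sum to 1000000.

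The 16 tumors came from 16 Smarcb1flox/flox;R26-CreERT2 mice on a mixed 129/SV and C57BL/6 background. In these mice a Cre recombinase switched on by tamoxifen acts in cells of any type, because it is driven from the Rosa26 locus, and it deletes both copies of Smarcb1, a subunit of the SWI/SNF chromatin remodeling complex. Every tumor, in each group, carried this genotype and had been induced by tamoxifen before birth, and no untreated or wild-type tissue was analysed here. Of these, 5 tumors were intra-CNS (tamoxifen at embryonic day 6, age 30 to 180 days), 6 were intracranial but extra-CNS (1 at day 6, 1 at day 7 and 4 at day 8, age 52 to 170 days) and 5 were extracranial (1 at day 6 and 4 at day 8, age 80 to 210 days). The tumor of 43990A, in the nose, is extracranial by its label and intracranial in the study's own list. Site and day of tamoxifen are partly confounded, since all 5 intra-CNS tumors but only 2 of the 11 extra-CNS tumors were induced at day 6, while both extra-CNS groups held 4 tumors of day 8. In whole tumors, fewer cells of a type and less RNA per cell cannot be told apart either.

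Melanin is made in melanosomes, organelles related to lysosomes, by melanocytes of the skin and by the retinal pigment epithelium. Mitf encodes the transcription factor that turns on most pigment genes, in part through a DNA motif of their promoters named the M-box. Tyrosinase carries out the first and limiting step of melanin synthesis, its relatives Tyrp1 and Dct act after it, Pmel forms the fibrils on which melanin is laid down, Mlana is a melanosome protein, and Oca2 and Slc45a2 are melanosome transport proteins whose loss causes albinism.

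In the promoters of these genes the M-box was searched as TCATGTG on both strands, a motif that contains the shorter E-box core CATGTG. RefSeq promoter sequences (build GRCm38.p6) were found for Tyr, Tyrp1, Dct and Oca2 with 1 start site each and for Mitf with 3, and none was matched for Pmel, Mlana and Slc45a2. The 250 bases before the start site of the 3 melanin enzymes and of Oca2 are shown, since the enzymes carry out melanin synthesis and Oca2 had the widest range of levels over the tumors. Each is written 5′ to 3′ on the strand of the gene, with the M-box on either strand in capitals.
Tyr (chr7:87493513-87493762, minus strand): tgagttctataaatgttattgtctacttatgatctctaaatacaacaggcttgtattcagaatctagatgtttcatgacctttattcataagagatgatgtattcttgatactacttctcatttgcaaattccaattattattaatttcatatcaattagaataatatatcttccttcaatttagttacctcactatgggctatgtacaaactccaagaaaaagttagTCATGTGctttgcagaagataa
Tyrp1 (chr4:80833963-80834212, plus strand): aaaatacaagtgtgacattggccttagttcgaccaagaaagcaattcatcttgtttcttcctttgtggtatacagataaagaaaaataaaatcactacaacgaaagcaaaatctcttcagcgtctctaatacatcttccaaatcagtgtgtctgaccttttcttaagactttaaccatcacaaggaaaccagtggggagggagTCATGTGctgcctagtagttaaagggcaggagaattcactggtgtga
Dct (chr14:118052247-118052496, minus strand): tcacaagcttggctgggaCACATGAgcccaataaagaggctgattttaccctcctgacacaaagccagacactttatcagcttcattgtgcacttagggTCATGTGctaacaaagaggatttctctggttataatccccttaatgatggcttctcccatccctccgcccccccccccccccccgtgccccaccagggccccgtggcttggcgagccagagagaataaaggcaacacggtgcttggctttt
Oca2 (chr7:56239509-56239758, plus strand): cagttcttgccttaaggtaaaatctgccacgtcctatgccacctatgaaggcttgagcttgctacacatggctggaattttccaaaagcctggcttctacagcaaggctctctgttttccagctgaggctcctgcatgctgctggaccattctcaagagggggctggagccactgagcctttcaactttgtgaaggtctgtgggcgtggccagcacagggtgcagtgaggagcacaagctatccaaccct
The M-box of Tyr begins 22 bases before the start site and that of Tyrp1 47 bases before it, while Dct holds 2, at 232 and 151 bases. By the GENCODE annotation the Tyrp1 gene begins upstream of the RefSeq start site used here, so that its M-box lies inside the gene by that annotation. Oca2 and the 3 Mitf promoters hold no TCATGTG in this window, although Oca2 holds the shorter CATGTG at 186 bases. Among the same 250 bases of all 32851 promoters, 3.25% hold an M-box, 12.3% hold CATGTG and 6.02% hold the related E-box CACGTG, which is in none of these 7 promoters. A match of letters is a description and does not show that Mitf binds there.

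The libraries held between 17889968 and 110177889 counts each. Levels resting on 3 counts or fewer were treated as at the floor, which is 0.0272 CPM (counts per 1000000) in the deepest library and 0.168 CPM in the shallowest. Reads carried no molecular identifiers, so intervals and floors cover counting error only. A pair of tumors stood apart in genes of other cell types. In the intracranial extra-CNS tumor of R26P115 (tamoxifen at day 8, age 115 days), 7 of 7 choroid plexus genes were higher than in every other tumor, with a summed level of 206153 TPM and Ttr, the transthyretin of the choroid plexus, at 199516 TPM alone. In the intra-CNS tumor of 29048 the same 7 genes summed to 4656 TPM and 7 oligodendrocyte genes to 6361 TPM, while the other 14 tumors held 0.336 to 9.76 TPM of the choroid plexus genes. Smarcb1 was also highest in these 2 tumors, at 58.1 TPM in 29048 and 43.7 TPM in R26P115, against 3.99 to 26.1 TPM in the other 14. Reads outside the deleted exons still count for Smarcb1, so this level does not check the deletion. Because Ttr takes so large a part of the TPM total in R26P115, the share left to its other genes is smaller. Several results are given with and without these tumors, as stated at each.

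Mitf was the only one of the 8 genes at or above 1 TPM in every tumor. In the 5 intra-CNS tumors Mitf was at 8.91 TPM in 29048, 1.70 in 38594A, 3.07 in 29050A, 2.97 in R26P98 and 2.18 in R26P87. In the 6 intracranial extra-CNS tumors it ranged from 1.28 TPM in 43992A through a median of 4.75 to 60.4 TPM in R26P115. In the 5 extracranial tumors it was at 9.62 TPM in 43825B, 3.44 in 43987A, 12.8 in 43990A, 35.2 in 43998A and 12.1 in R26P123. R26P115 and 43998A were far above the rest, and the 3 groups overlapped. The means were 3.77 ± 2.93 TPM (SD, n = 5) in intra-CNS, 13.2 ± 23.2 (SD, n = 6) in intracranial extra-CNS and 14.6 ± 12.1 (SD, n = 5) in extracranial tumors. Without R26P115 the middle group fell to 3.77 ± 1.55 TPM (SD, n = 5), within the spread of the intra-CNS tumors.

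The 2 tumors with the most Mitf held different cell markers. In R26P115, choroid plexus genes were at the level given above and the 8 osteoclast genes summed to 45.3 TPM. In 43998A, from the mouth, the choroid plexus genes summed to 2.05 TPM and the osteoclast genes to 31249 TPM, with 7 of the 8 higher there than in any other tumor. Osteoclasts, the cells that resorb bone, are known to use Mitf without making pigment. R26P123 and 43825B, at 12.1 and 9.62 TPM of Mitf, held the next highest osteoclast sums, 3876 and 1597 TPM, but 43990A, with more Mitf than either, held 214 TPM. The part of osteoclasts in these Mitf levels was not tested. In 43998A the pigment genes other than Mitf stayed low, with Tyr at 0.0122 TPM, Pmel at 0.695, Slc45a2 at 0.198 and Tyrp1, Dct, Mlana and Oca2 at 0 counts.

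**Figure D1:**
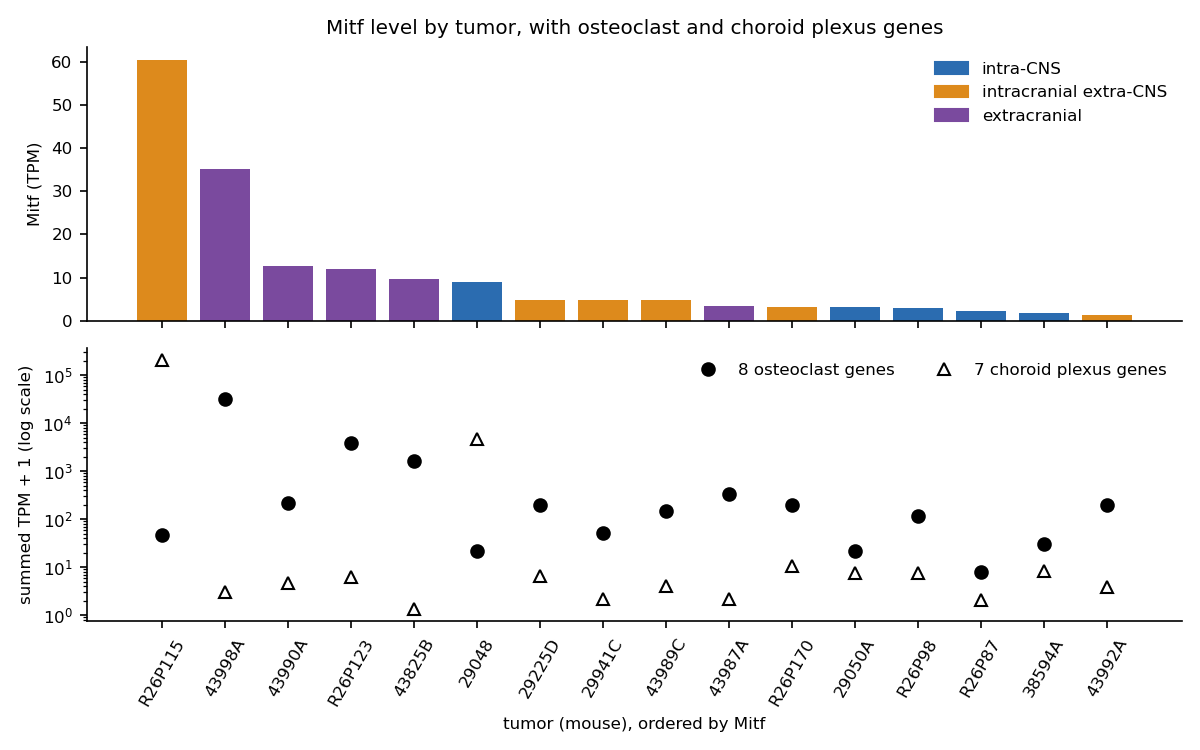
Mitf level in TPM (bars, colored by site, upper panel) in the 16 tumors ordered from highest to lowest, over the summed TPM + 1 of 8 osteoclast and 7 choroid plexus genes (lower panel, log scale). R26P115 at 60.4 TPM of Mitf has the choroid plexus genes, and 43998A at 35.2 TPM has the most osteoclast RNA.

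Tyr, tyrosinase itself, was near 0 in every tumor. It had 0 counts in 6 tumors and at most 2 counts in 8 others. Only 43987A, an extracranial tumor, with 8 counts (0.0593 TPM), and R26P115, with 16 counts (0.241 TPM), were above the floor of 3 counts. In R26P115 this is 0.603 CPM (95% Wilson interval 0.371 to 0.980), and 28.0% of all genes with a TPM above 0 in any tumor were lower in that tumor. No tumor reached 1 TPM of the gene for which the human subgroup is named.

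Tyrp1 was at 0 counts in 8 tumors and above the floor in 4. The highest level was in 29048, at 48 counts and 1.48 TPM, followed by R26P115 at 25 counts and 0.826 TPM. R26P123 had 8 counts (0.206 TPM) and R26P98 had 4 (0.161 TPM). All 5 intra-CNS tumors had at least 1 count, and the 5 intracranial extra-CNS tumors other than R26P115 had 0.

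Dct, dopachrome tautomerase, stood out in R26P115, at 275 counts and 11.1 TPM, or 10.4 CPM (95% Wilson interval 9.21 to 11.7). The next tumor was 29048 with 20 counts (0.751 TPM), then R26P123 with 13 counts (0.408 TPM) and 29225D with 10 counts (0.161 TPM), and 9 tumors had 0 counts. R26P115 was thus 14.7-fold above the next tumor in TPM. The 13 counts in R26P123, a jaw tumor, came with 7 of 7 epidermis and hair genes highest in that tumor, beside 5.57% of all genes. Those 7 genes summed to 1993 TPM against 1.85 to 40.0 in the other 15, and their part in the Dct counts was not tested.

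Oca2, a chloride and pH regulating protein of the melanosome membrane, was the pigment gene with the widest range. It was at 66.1 TPM (2274 counts) in R26P115, at 2.25 TPM (83 counts) in 29048 and at no more than 0.0932 TPM (4 counts) in any other tumor, with 0 counts in 9. R26P115 lay 29.4-fold above 29048. Its 85.7 CPM (95% Wilson interval 82.3 to 89.3) put Oca2 above 89.3% of all genes of that tumor. Of the other members only Mitf ranked as high, above 88.2% of genes, while Dct was above 58.6%, Mlana above 45.6% and Pmel above 43.7%.

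Slc45a2, the other transporter, had a different pattern. Its highest levels were in 2 intra-CNS tumors, at 1.30 TPM (35 counts) in R26P87 and 0.588 TPM (45 counts) in 29050A, followed by R26P123 at 0.262 TPM (11 counts). R26P98 had 6 counts, and 38594A and 29048 had 3 and 2. In R26P115 it had only 4 counts (0.122 TPM). R26P87 and 29050A, where Slc45a2 was highest, had Oca2 at 0 and 1 counts and Tyr at 0 and 1 counts. Mlana was at 0 counts in R26P87 but at 11 counts in 29050A, its second highest level.

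Mlana, the melan-A gene, reached 3.36 TPM in R26P115 on 17 counts, 0.931 TPM in 29050A on 11 counts and at most 0.526 TPM on 2 counts in any other tumor. It had 0 counts in 7 tumors, 29048 among them. In R26P115 the interval was 0.400 to 1.03 CPM (95%, Wilson) around 0.641 CPM.

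Pmel differed from the other pigment genes in that it had counts in all 16 tumors and a narrow range. It lay between 0.675 TPM (R26P87) and 2.74 TPM (R26P115), with 13 to 136 counts. The means were 0.933 ± 0.315 TPM (SD, n = 5) in intra-CNS, 1.65 ± 0.637 (SD, n = 6) in intracranial extra-CNS and 0.981 ± 0.408 (SD, n = 5) in extracranial tumors. In the GENCODE annotation (GRCm38), Pmel (chr10:128704195-128720238, plus strand) shares 837 bases with Cdk2 and 105 bases with Dgka on the opposite strand, and both neighbors are strongly expressed, with up to 5979 and 3613 counts. Libraries were stranded, but whether counting used the strand is not given in the sources used here. Reads inside the shared stretches therefore cannot be told apart between Pmel and these neighbors. Across the 16 tumors the Pearson correlation of Pmel with Cdk2 in log2(TPM + 1) was -0.64, and -0.40 without R26P115. Dct, Mitf and Oca2 overlap antisense genes of the annotation that are not in the count table.

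**Figure D2:**
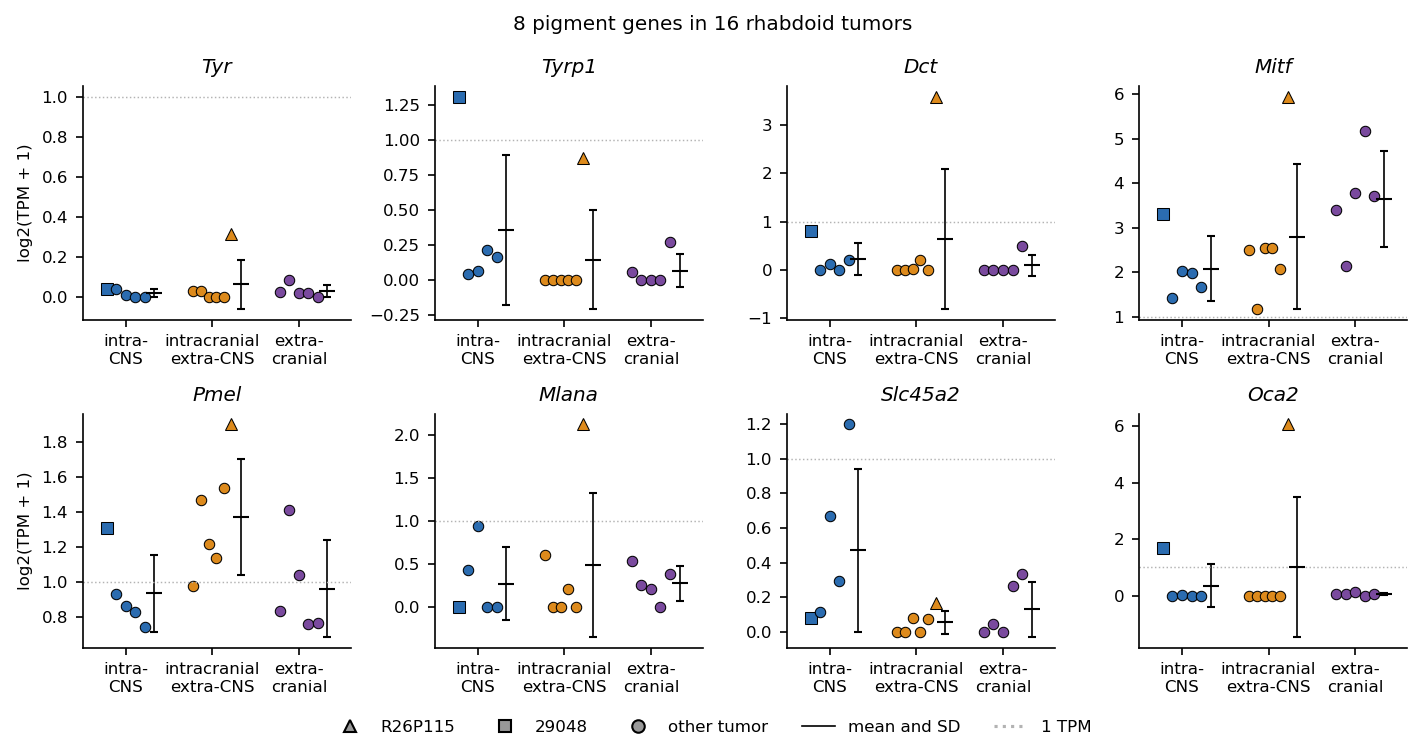
Level of each of the 8 pigment genes, as log2(TPM + 1), in the 16 tumors grouped by site, with the mean and SD of each group beside the points and a separate vertical scale for each gene. The triangle is R26P115, the highest tumor for Tyr, Dct, Mitf, Pmel, Mlana and Oca2, and the square is 29048, the highest for Tyrp1.

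The genes lie on chr7 (Tyr, chr7:87424771-87493512, minus strand, and Oca2, chr7:56239760-56536518, plus strand), chr4 (Tyrp1, chr4:80834123-80851719), chr14 (Dct, chr14:118012790-118052244), chr6 (Mitf, chr6:97807052-98021349), chr19 (Mlana, chr19:29697824-29708634) and chr15 (Slc45a2, chr15:11000721-11029233), all in GRCm38. Tyr and Oca2 share a chromosome but lie far apart, and the counts of Tyr stayed low where Oca2 was high.

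Taking the 7 genes without Mitf, 9 of 16 tumors had at least 1 gene at or above 1 TPM, but in 6 of the 9 that gene was Pmel alone. Without Pmel, 3 tumors remained, namely 29048 (Tyrp1 and Oca2), R26P87 (Slc45a2) and R26P115 (Dct, Mlana and Oca2). At least 3 of the 7 genes passed 1 TPM in 2 tumors, with 4 in R26P115 and 3 in 29048. Only R26P115 had all 8 genes above the floor of 3 counts, while the other tumors had 2 to 5. The summed level of the 7 genes was 84.4 TPM in R26P115, 6.04 TPM in 29048 and 0.905 to 2.49 TPM in the other 14 tumors.

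R26P115 was the highest of the 16 tumors for 6 of 8 members, where it was the highest for 8.37% of all 21841 genes with a TPM above 0. 29048 was the highest for 1 of 8 members, beside 14.7% of all genes, and 43998A for 0 of 8, beside 3.72%. R26P115 was over 10 times the next tumor for Dct and Oca2, as for 0.980% of all genes. The exceptions were Tyrp1, which was highest in 29048, and Slc45a2, which was highest in R26P87.

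Other pigment cell genes of R26P115 were uneven. Of 13 further melanosome genes, Slc24a5, an ion exchanger of the melanosome whose loss dilutes pigment, was at 248 TPM (5305 counts), 94.6-fold above the next tumor, and Atp7a, the copper pump that loads tyrosinase, was at 68.1 TPM and 4.67-fold above the next. Gpnmb, a relative of Pmel that macrophages and osteoclasts also express, was the other melanosome gene highest in R26P115, at 71.6 TPM. By contrast Gpr143 and Trpm1, markers of pigment cells, were at 0.110 TPM and at 0. Among genes of the melanocyte lineage, Sox10, which drives Mitf in melanocytes, was at 0.906 TPM, Mc1r, the melanocortin receptor, at 0.0249 TPM and Kit, the receptor for stem cell factor, at 7.47 TPM, each within the range of the other tumors. Edn3, the endothelin that acts on melanocyte precursors, was the 1 of the 12 lineage genes highest in R26P115, at 11.5 TPM against 9.25 TPM in 43990A. Its receptor gene Ednrb was at 37.7 TPM in R26P115, above the 4.89 to 15.3 TPM of the other extra-CNS tumors and below the 189 to 299 TPM of the intra-CNS tumors. The promoter of Slc24a5, which is no member, also holds an M-box, 13 bases before its start site.

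Genes of the retinal pigment epithelium were uneven as well. Rdh5, a retinol dehydrogenase, was at 423 TPM and 16.7-fold above the next tumor, and Rrh, a retinal opsin-like receptor, at 17.7 TPM and 12.7-fold above it. Otx2, a transcription factor of the retinal pigment epithelium and of the choroid plexus, was at 387 TPM, against 112 to 341 TPM in the 5 intra-CNS tumors and at most 0.704 TPM in the other extra-CNS tumors. Rlbp1, a retinaldehyde-binding protein, was at 6.95 TPM, below the 13.4 TPM of 29048 and above the at most 0.768 TPM of the other extra-CNS tumors. Rpe65, the isomerase of the visual cycle, and Rgr were at 0.148 and 0 TPM, and Best1 and Lrat, at 3.32 and 0.613 TPM, were within the range of the other tumors. Summed marker levels of other cell types in R26P115 were within the range of the other tumors for mast cells (20.5 TPM, others 0.0679 to 95.3) and Schwann cells (12.1 TPM, others 8.97 to 98.8).

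The 7 choroid plexus genes in R26P115 were from 35.9-fold (Folr1) to 137-fold (Kcne2) above the next tumor, which was 29048 for each of them. In 29048 these 7 genes were at 0.728% to 2.79% of their level in R26P115. Of the pigment genes, Oca2 in 29048 was at 3.41% and Dct at 6.79% of the R26P115 level. Mitf was at 14.7%, Pmel at 53.9% and Tyrp1 at 179%. In 29048 Tyr and Slc45a2 had 2 counts each and Mlana 0, all at the floor, so that the depth cannot show their proportion. Slc24a5 was at 0.774%, and its next highest tumor was 43998A (2.62 TPM), not 29048 (1.92 TPM). Whether cells of the choroid plexus carried the pigment RNA in either tumor was not tested.

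**Figure D3:**
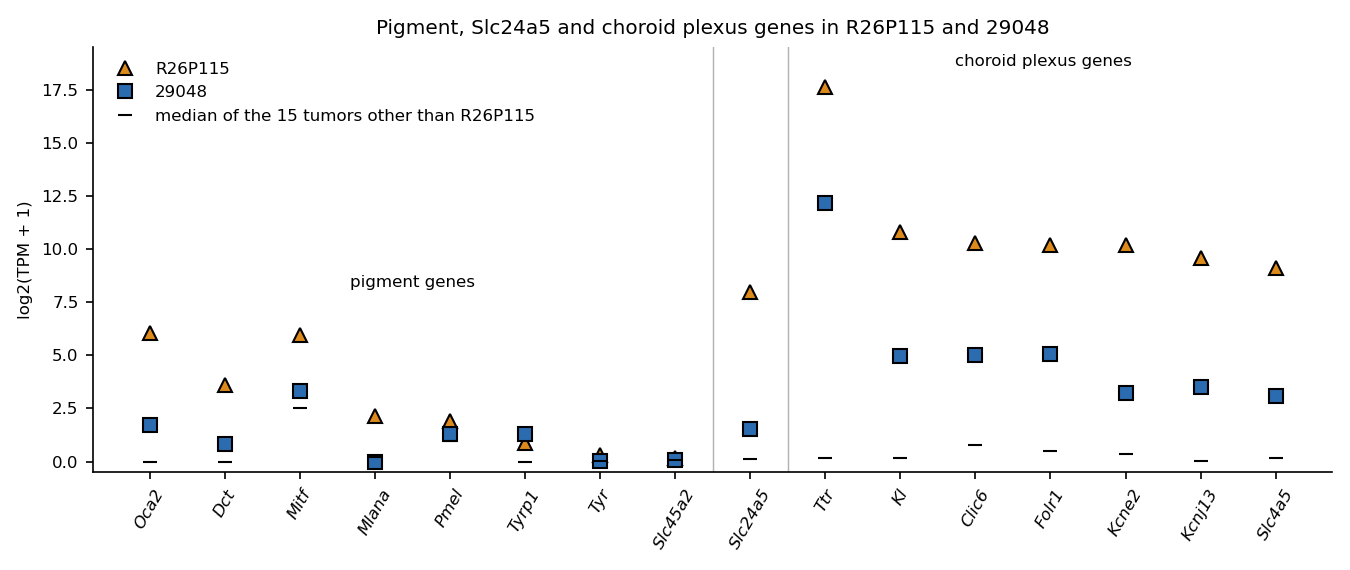
Levels as log2(TPM + 1) of the 8 pigment genes, Slc24a5 and 7 choroid plexus genes in R26P115 (triangles) and 29048 (squares), with the median of the 15 tumors other than R26P115 as a dash. R26P115 lies above 29048 for every gene shown other than Tyrp1, and 29048 lies below the median for Mlana.

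A list of genes high in human TYR tumors was also looked at. Of its 100 symbols, 80 were matched to mouse genes by symbol, and 79 had a TPM above 0. Of the 79 genes, 4 are pigment members (Mitf, Dct, Pmel and Tyr) and 3 are on the choroid plexus list (Clic6, Kcnj13 and Slc4a5). R26P115 was the highest tumor for 29 of the 79 (36.7%), beside 8.37% of all genes. The next tumors, 29048 and R26P87, were highest for 8 genes each (10.1%), beside 14.7% and 11.2% of all genes. In R26P115, 9 of the 79 genes were over 10 times the next tumor, and Dct was the only member among them. The others were Enpp2, autotaxin, a secreted enzyme abundant in choroid plexus, at 48046 TPM, the choroid plexus genes Clic6, Kcnj13 and Slc4a5 named above, and Trpm3, Strip2, Crhr2 and Iqub.

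**Figure D4:**
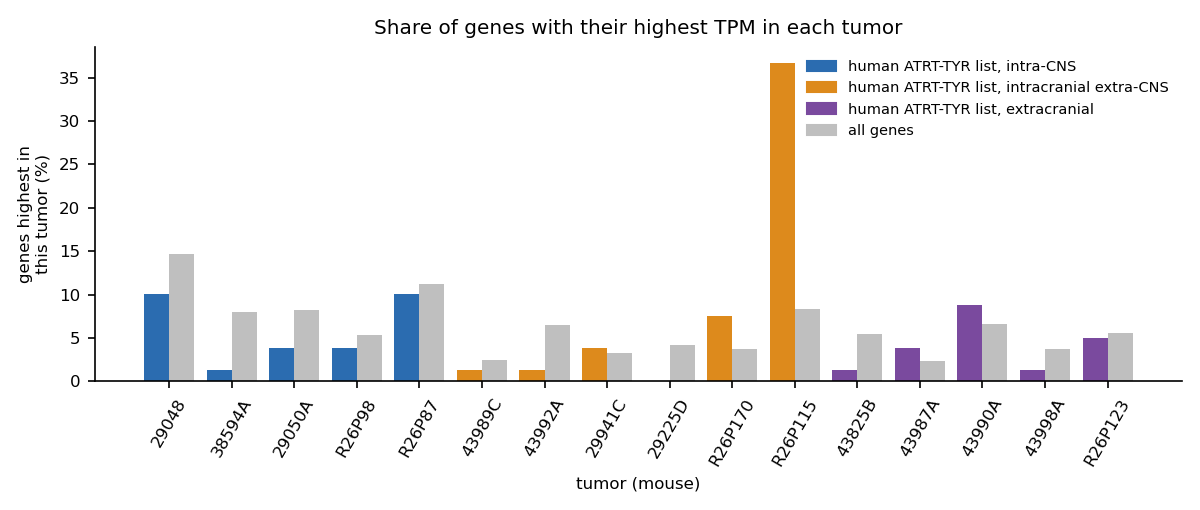
Percent of genes whose highest TPM of the 16 tumors was in each tumor, for the 79 matched genes of the human TYR list (colored by site) and for all 21841 genes (gray). R26P115 holds 36.7% of the list and 8.37% of all genes.

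The groups were compared for every gene, first the 5 intra-CNS against the 11 extra-CNS tumors, since the study asks how tumors inside and outside the brain differ. With edgeR's quasi-likelihood test, 26% of 21854 genes passed an adjusted p under 0.05 with a change above 2-fold (a log2 fold change above 1 in size), 12.9% higher and 13.1% lower in intra-CNS tumors. Of the 8 members 1 passed, or 12.5%, which is Mitf. It was lower in intra-CNS tumors by a log2 fold change of -2.49 (SE 0.90, adjusted p = 0.0425). That call depended on which tumors entered the fit. Without R26P115 the value was -1.81 (adjusted p = 0.0530), without 43998A -2.25 (adjusted p = 0.0619), and it was lost as well when any of 38594A, 29050A, R26P98 or R26P87 was left out. Over the 16 fits that each left out 1 tumor, the adjusted p ran from 0.0281 to 0.0978, always with Mitf lower in intra-CNS tumors. The call was also lost among day 6 tumors alone (-1.38, adjusted p = 0.212), among intracranial tumors alone (-2.49, adjusted p = 0.0928), with the naming scheme of the mice (numbered or R26P) as covariate (-2.29, adjusted p = 0.0593) and in limma on log2(TPM + 1) (-1.10, adjusted p = 0.204). Macrophage genes, among the cells known to express Mitf and its relatives, were lower in intra-CNS tumors for 11 of 11 genes, with sums of 861 to 1383 TPM against 1069 to 10998, and osteoclast genes for 5 of 8, with sums of 6.91 to 113 against 45.3 to 31249 TPM. Their part in the Mitf difference was not tested.

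The other 7 members did not pass. Pmel had a log2 fold change of -1.08 (SE 0.46, adjusted p = 0.0780) and Slc45a2 of 2.18 (SE 1.04, adjusted p = 0.116), with means of 0.449 ± 0.520 TPM (SD, n = 5) in intra-CNS against 0.0656 ± 0.0908 (SD, n = 11) in extra-CNS tumors. Oca2 was at -4.46 (SE 2.98, adjusted p = 0.255), Dct at -3.12 (SE 2.24, adjusted p = 0.292) and Tyr at -1.95 (SE 1.37, adjusted p = 0.279). Mlana was at -1.24 (SE 1.34, adjusted p = 0.481) and Tyrp1 at 1.26 (SE 1.48, adjusted p = 0.517). The fitted values of genes near 0 counts depend on the constant added in the fit, and the standard error was larger than the difference for Mlana and Tyrp1.

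The sign of several members turned on R26P115. Without it, Tyrp1 was higher in intra-CNS tumors by 3.34 (SE 1.26, adjusted p = 0.0465) and Oca2 by 3.89 (SE 1.43, adjusted p = 0.0417), so that 2 of 8 members passed, or 25%, beside 30.5% of all genes in that fit. Neither had passed with it. Those 2 calls rested in turn on 29048. Without both tumors Tyrp1 was at 1.29 (SE 1.27, adjusted p = 0.436), Oca2 was at -1.99 (SE 1.33, adjusted p = 0.250), and the 1 member that passed was Mitf, at -2.41 (SE 0.77, adjusted p = 0.0250), where 27.1% of genes passed. The median log2 fold change of the 8 members was -1.59 with all tumors, against -0.15 over all genes, 0.72 against -0.07 without R26P115, and -0.77 against -0.13 without both R26P115 and 29048.

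**Figure D5:**
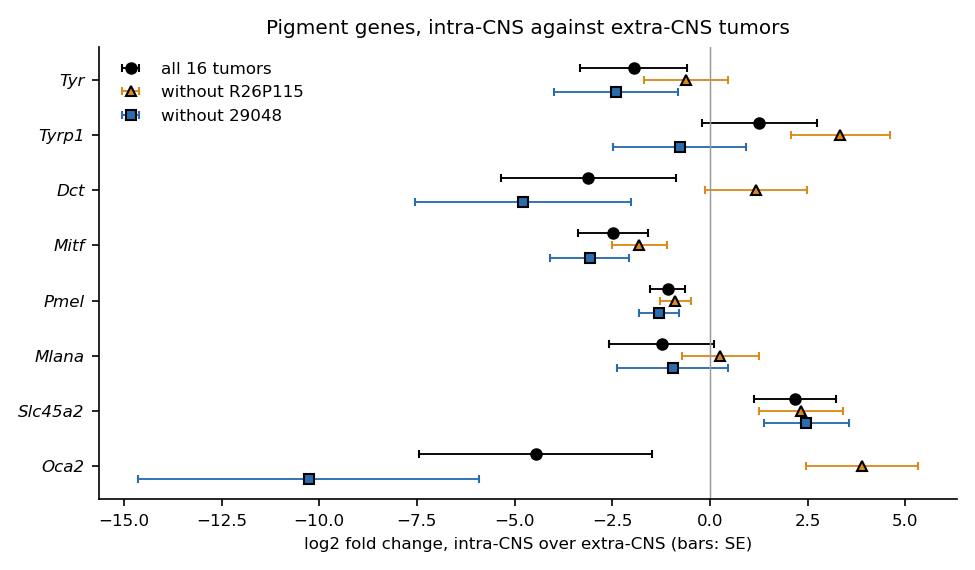
Log2 fold change (edgeR) of each pigment gene in intra-CNS over extra-CNS tumors, with its standard error as bars, for all 16 tumors (circles), without R26P115 (triangles) and without 29048 (squares). Oca2, Dct and Mlana change sign without R26P115, and Tyrp1 without 29048.

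Other genes of pigment cells were counted in the same comparison. Of the 13 melanosome genes 4 passed, or 30.8%, a share near the 26% of all genes. Slc7a11, the cystine transporter that supplies the red-yellow pigment, was higher in intra-CNS tumors (log2 fold change 3.75, SE 0.74, adjusted p = 0.00105). Rab32, a small GTPase that brings enzymes to melanosomes, was lower (-3.25, SE 0.65, adjusted p = 0.00115), as were the vesicle protein Cd63 (-2.56, SE 0.31, adjusted p = 2.98e-05) and 1 further gene, Tpcn2. Cd63 is found in vesicles of most cell types and was at 190 to 314 TPM in intra-CNS and 357 to 1736 TPM in extra-CNS tumors. Of the 12 melanocyte lineage genes in the tables, 1 passed (8.33%, below the share of all genes), which is Ednrb, the endothelin receptor also used by glia and neural progenitors, at 244 ± 52.0 TPM (SD, n = 5) against 10.9 ± 9.40 (SD, n = 11).

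The 3 relatives of Mitf, which bind the same kind of motif and drive lysosome genes, were each called lower in intra-CNS tumors. This stands beside 13.1% of all genes called lower there. Tfec was at 0.421 ± 0.275 TPM (SD, n = 5) against 9.37 ± 9.13 (SD, n = 11), with a log2 fold change of -4.99 (SE 0.94, adjusted p = 0.000787). Tfeb was lower by a log2 fold change of -1.73 (SE 0.36, adjusted p = 0.00153) and Tfe3 by -1.17 (SE 0.19, adjusted p = 0.000226). All 3 remained called without R26P115. The macrophage genes (11 of 11) and osteoclast genes (5 of 8) given above were lower in the same tumors, and their part in these differences was not tested. Of other cell types, 0 of 8 retinal pigment epithelium, 0 of 8 mast cell and 0 of 5 Schwann cell genes passed. So did 0 of 7 choroid plexus and 0 of 7 epidermis and hair genes. At an unadjusted p under 0.05 in edgeR these lists had 2, 2, 2, 0 and 5 genes, beside 9706 of all 21854 genes. By contrast, 6 of 7 oligodendrocyte genes and 4 of 6 neuron genes passed and were higher in intra-CNS tumors. Without R26P115, 3 of 7 choroid plexus, 2 of 8 retinal pigment epithelium and 1 of 5 Schwann cell genes passed, beside 30.5% of all genes. Without 29048 as well, 1 of 7 choroid plexus, 2 of 8 retinal pigment epithelium and 1 of 5 Schwann cell genes passed, beside 27.1% of all genes. Without 29048 alone, where 22.8% of all genes passed, 0 of 7 oligodendrocyte genes did. Of 19 genes for the making of lysosome-related organelles, 1 passed (5.26%, beside 26% of all genes), Hps3, at -1.02 (SE 0.26, adjusted p = 0.00667). Without 29048, and without both 29048 and R26P115, 3 of the 19 passed, Hps3, Hps6 and Dtnbp1, each lower, beside 22.8% and 27.1% of all genes.

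Of the 79 tested genes of the human TYR list, 21 passed (26.6%), 13 higher and 8 lower in intra-CNS tumors, beside the background of 26%. Without R26P115, 34 passed (43.0%), 27 higher and 7 lower, beside 30.5% of all genes, and 20 were called in both fits. Without R26P115 and 29048, 24 passed (30.4%), beside 27.1% of all genes. The median log2 fold change of the list was -0.80 with all tumors, 1.18 without R26P115 and 0.37 without both. None of the 5 genes with the largest change is a pigment member. Myo16 (5.91, SE 1.26, adjusted p = 0.00196), Helt (4.75, SE 0.96, adjusted p = 0.00129) and Ptprt (4.50, SE 0.57, adjusted p = 3.83e-05) were higher in intra-CNS tumors. Fam110c (-5.57, SE 1.44, adjusted p = 0.00744) and Ccdc68 (-5.41, SE 1.99, adjusted p = 0.0459) were lower.

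Within the 11 extra-CNS tumors, the 6 intracranial were compared with the 5 extracranial. None of the 8 members passed edgeR's test, beside 0.00470% of 21261 genes, a single gene, Ttc39aos1 (log2 fold change 4.86, SE 0.55, adjusted p = 0.0356). With 43990A counted as intracranial, Ttc39aos1 was not called and 1 other gene was, Snhg11 (5.27, SE 0.53, adjusted p = 0.0104), and without 43990A the 2 called genes were Snhg11 and Snx7. No member passed in either fit, and with 43990A as intracranial Oca2 was at 8.53 (SE 3.78, adjusted p = 0.412). At an unadjusted p under 0.05 in edgeR, 1 of 8 members was found, beside 2606 of all 21261 genes. That member was Oca2, at 8.24 (SE 3.20, adjusted p = 0.372). Both Oca2 values rest on R26P115, since the other 5 intracranial extra-CNS tumors had 0 counts, and without it Oca2 was at -4.21 (SE 1.12, adjusted p = 0.375), where the extracranial tumors had 0 to 4 counts. DESeq2 gave no p for Tyrp1, Dct, Mitf and Oca2. Of the other 4 members it called 0, beside 2.89% of 16966 genes. Among these 4, 1, Pmel, had an unadjusted p under 0.05, and the share of all genes under that p was not counted. By limma 0 of 8 were called, beside 0.00471% of 21248 genes, and 0 had an unadjusted p under 0.05. Mitf was at -0.01 (SE 0.98, adjusted p = 0.997). Without R26P115 Mitf was at -1.99, with 3.77 ± 1.55 TPM (SD, n = 5) in intracranial against 14.6 ± 12.1 (SD, n = 5) in extracranial tumors, and did not pass.

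The genes whose levels most resembled those of Mitf over the 16 tumors, among 14803 genes with a mean of at least 50 counts, were Ceacam16 (Pearson r of log2(TPM + 1) 0.92), Pon3, a paraoxonase (0.89), and Hadhb, an enzyme of fatty acid oxidation (0.89). Mitf correlated at 0.65 with Oca2 and at 0.58 with Tyr. Without R26P115 these fell to 0.21 and -0.07, and the most similar genes were Prkch (0.93), Mfsd12, a transporter of lysosomes and melanosomes (0.90), and Mbnl1 (0.90). For Pmel the most similar were Baiap2l1 (0.89), the tight junction gene Cldn3 (0.87) and Ntf5, a neurotrophin (0.86). Without R26P115 those for Pmel were Baiap2l1 (0.84), Cldn3 (0.83) and Ddit3 (0.79). These are descriptions over tumors that share their sites and cell content.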

How the data were processed

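Polyadenylated RNA of 16 mouse rhabdoid tumors was sequenced by the authors as stranded paired-end libraries. The submitters' processing notes name Trim Galore, FastQC, STAR 2.5.3a and Picard and the build mm10, and the gene annotation and the strand setting of counting are not given in the sources used here. The authors deposited raw counts per gene, without normalization, and TPM values that sum to 1000000 per tumor. Groups are the tumor locations of the labels, and each mouse gave 1 tumor. Counts were tested with edgeR 4.0.16 in R 4.3.3 (TMM, glmQLFit, glmQLFTest) on all genes with a count, with Benjamini-Hochberg adjustment over all genes, an adjusted p under 0.05 and a log2 fold change above 1 in size. SE is the log2 fold change divided by the root of the F statistic. On simulated counts with 200 changed genes, 53.5% of genes changed 4-fold and 67.5% changed 8-fold were recovered among 21854 genes for intra-CNS against extra-CNS, with 6 and 9 false calls, and 19.5% and 66% among 21261 genes for the comparison by site within extra-CNS tumors, with 1 and 2 false calls. The changed genes were drawn from genes with a mean of at least 50 counts. Tyr, Tyrp1, Dct, Pmel, Mlana and Slc45a2 lie below that mean, so these rates do not cover them. Alternatives used DESeq2 1.42.0, limma 3.58.1 on log2(TPM + 1), other filters and samples, and leaving out each tumor.

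The members and gene lists were chosen with earlier results of these data known. Named genes are the 8 members, Smarcb1, up to 3 called genes of each pigment list and 5 of the human TYR list with the largest change, and the 3 genes most like Mitf and Pmel. Genes named for their level in R26P115, Gpr143, Trpm1, Edn3, Ednrb and the marker genes of other cell types were named after their values were seen, and Ttc39aos1, Snhg11, Snx7, Hps6, Dtnbp1 and Tpcn2 because few genes were called. Lists matched by symbol 8 of 8 members, 12 of 13 lineage genes and 80 of 100 human TYR genes, which the study drew from human tumors. Promoters came from RefSeq (GRCm38.p6) and gene positions from GENCODE (GRCm38).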

Additional observations from a re-analysis of the deposited data

Results flagged for a closer look

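Levels of the 8 genes were compared within each site group as log2(TPM + 1), and a tumor was picked out when its gap to the nearest of its group exceeded Dixon's 95% limit. Of 24 groups examined, 11 had such a tumor, 6 of them R26P115. Chance picks out about 1 in 20 groups of normally distributed values, but that rate does not hold where the other tumors are at or near 0 counts, as for Tyrp1 and Oca2 in R26P115 and Dct in R26P123, so these values are a description. The R26P115 values were 5.94 for Mitf, 6.07 for Oca2, 3.59 for Dct, 2.12 for Mlana, 0.87 for Tyrp1 and 0.31 for Tyr, each the highest of the 6 intracranial extra-CNS tumors. Tyr in R26P115 rests on 16 counts and Mlana on 17.

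In the intra-CNS group, 29048 was highest at 1.31 for Tyrp1, 0.81 for Dct and 1.70 for Oca2. In the extracranial group, R26P123 was highest at 0.27 for Tyrp1 and 0.49 for Dct, on 8 and 13 counts.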

How the results depend on the processing

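No paired analysis was possible because the labels name no litter or other link that pairs tumors between sites. The number of genes called between intra-CNS and extra-CNS tumors was 5689 and ran from 4766 to 6649 when 1 tumor was left out, with 3533 among tumors of tamoxifen at day 6 alone. Of those calls, 49.7% were higher in intra-CNS tumors in edgeR, 75.5% in limma on log2(TPM + 1) and 37.2% among day 6 tumors alone. The median over all genes was -0.15 in edgeR and 0.20 in limma. Of the members, 1 was called, against 2 with DESeq2, which gave no p for Oca2 and Tyrp1, and with filterByExpr (Mitf and Pmel in both), 0 in limma, with the mouse name scheme as covariate, among day 6 tumors alone, among intracranial tumors alone and, chosen after seeing the data, without R26P115 and 43998A, and 0 to 2 when 1 tumor was left out. The filter left 2 members to test. Over all genes in this comparison, DESeq2 called 6367, filterByExpr 5034, limma 5406 and the name scheme fit 5605. Intracranial tumors alone gave 4919 calls, and leaving out R26P115 and 43998A gave 6493. Of the human TYR list, 32 genes were called with DESeq2 against 21 with edgeR, where DESeq2 also called more of all genes (6367 against 5689). With 1 tumor left out, edgeR called 16 to 34 of the list, beside 4766 to 6649 of all genes. Of the melanosome list, 2 were called among day 6 tumors alone. Within extra-CNS tumors, DESeq2 called 490 genes against 1 in edgeR, and 0 to 3 were called in edgeR when 1 tumor was left out. At 0.5 TPM or at 10 counts, 16 tumors had a pigment gene other than Mitf, each through Pmel.

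Several log2 fold changes of members changed sign, none of them past the threshold with all tumors, and the cause was not tested. Intra-CNS against extra-CNS, Tyr was at 0.048, Dct at 5.40 and Oca2 at 4.07 among day 6 tumors alone. Dct was at 1.45 and Oca2 at 4.21 with DESeq2, at 1.29 and 3.11 with the name scheme, and at 1.05 and 3.78 without R26P115 and 43998A. Mlana was at 0.14 without those and at 0.55 without R26P115 and 29048. With 1 tumor left out, Tyrp1 ran from -0.77 to 3.34, Dct from -4.78 to 1.18, Mlana from -2.65 to 0.26 and Oca2 from -10.27 to 3.89. Within extra-CNS tumors, the name scheme gave -0.62 for Tyr, -0.27 for Tyrp1 and -1.31 for Oca2, and Mitf was at 0.052 with DESeq2 and with its size factors and at 0.033 with filterByExpr. With 1 tumor left out there, Tyr ran from -1.80 to 2.18, Tyrp1 from -4.31 to 3.96, Dct from -0.92 to 9.41, Mitf from -1.99 to 0.65, Mlana from -0.83 to 2.08 and Oca2 from -4.21 to 8.75. Depth limits Tyr, Tyrp1, Mlana and Slc45a2, which had at most 48 counts in any tumor.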
